A study of Mus musculus with 21 samples.

Results

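The 9 genes Pdgfra, Cspg4, Olig1, Olig2, Sox10, Mbp, Mog, Mag and Cnp, which mark stages of the oligodendrocyte lineage, were followed in nascent RNA of mouse cortical cultures. Pdgfra and Cspg4 mark precursors, Olig1, Olig2 and Sox10 are transcription factors of the whole lineage, and Mbp, Mog, Mag and Cnp are myelin genes. They were chosen by name as markers of these stages, and are 9 of the 24984 genes in the whole-gene count table. All 9 passed the filter on low counts, which 16959 genes passed. The assay, BrU-seq, reads new transcripts: cells fed bromouridine put it into RNA as it is made, and that tagged RNA is pulled out for sequencing. The cells were primary cultures of CD1 mouse cortex at day 17 in vitro, of mixed sex, and all groups shared the 2 mM bromouridine added for the last 30 min. A preincubation of 30 min was with the solvent DMSO or with 25 µM MM401, a peptidomimetic that blocks the binding of the histone methyltransferase MLL1 to WDR5. They were then given 40 µM bicuculline, which blocks GABA-A receptors and so raises network activity, or water as its control. DMSO cultures were in water for 4 h or in bicuculline for 1 h or 4 h, and MM401 cultures were in water or in bicuculline for 1 h or 4 h, which makes 7 groups. The labels number 3 replicates in each group. DMSO cultures in water for 1 h were not analysed here, and the DMSO response at 1 h was therefore measured against water at 4 h.

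Oligodendrocyte precursors divide and spread through the cortex under the control of platelet-derived growth factor, which they sense through the receptor encoded by Pdgfra, and they carry the proteoglycan NG2, encoded by Cspg4. Olig2 and Sox10 are needed to specify and mature the lineage, and Olig1, the neighbour of Olig2 in the genome, takes part in maturation. When a precursor differentiates it shuts down Pdgfra and Cspg4 and switches on the proteins of the myelin sheath: Cnp early, then Mbp, which compacts the membrane, Mag, which sits on the inner face toward the axon, and Mog, a late protein of the outermost surface. Neuronal activity is known to act on precursors, which receive synapses from neurons.

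One library, replicate 3 of MM401 with water at 4 h, held 316741 counts, 0.503% of the median of the other 20, and was left out; that group had 2 libraries. The remaining 20 libraries held 49886348 to 87939384 counts in genes. Replicate 1 of DMSO with water at 4 h deviated most from its group (a median absolute deviation of 0.122 in log2 CPM over genes, against at most 0.102 in the other 19 libraries). Several results that rest on it, though not all, are given without it as well. Levels below are CPM, read counts relative to the library total after scaling by TMM, and a gene was called when its edgeR adjusted p was under 0.05. Markers of neurons (10 of 10 tested, summed level 5067 to 8147 CPM by library) and astrocytes (10 of 10, 1111 to 1727 CPM) were abundant in every library, and those of microglia (8 of 9 tested) summed to 52.4 to 88.3 CPM. Endothelial markers summed to at most 4.19 CPM. In such bulk cultures fewer cells of a type and less RNA per cell cannot be told apart.

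The deposited coordinates are on mouse build mm10. Pdgfra spans chr5:75152250-75198206 (+), Cspg4 chr9:56865103-56899870 (+), Olig2 chr16:91225549-91228677 (+), Olig1 chr16:91269768-91271939 (+), Sox10 chr15:79154912-79164490 (-), Mog chr17:37010739-37023398 (-), Mag chr7:30899180-30914922 (-) and Cnp chr11:100574938-100581739 (+). Counts cover the whole span, exons and introns, so a gene with long introns such as Mbp (110516 bp) collects more counts than a short one such as Olig1 (2172 bp). Use of strand in the counting is not stated, so reads of overlapping genes cannot be separated: Pdgfra overlaps Mir7025, Olig2 overlaps the RefSeq gene Gm52261, and Mbp overlaps the RefSeq genes Rpl21-ps8 and Gm52337. The Mbp span also includes the longer Golli transcripts of the same gene, which neurons make too, so its count is not a count of the myelin form alone.

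The promoters of 3 members called with bicuculline are shown because those members stand for the precursor, transcription factor and myelin classes. Each is the 250 bases before a transcription start listed in the RefSeq promoter table, the listed start nearest to the gene's start in the count table, printed 5′ to 3′ on GRCm38.p6, the same build as mm10: chr5:75152001-75152250 for Pdgfra, chr16:91225300-91225549 for Olig2 and chr11:100574689-100574938 for Cnp, each on the + strand. The RefSeq gene span begins further upstream for Pdgfra (75151322) and inside the window for Cnp (100574909). Capitals mark matches, on either strand, to 7 motifs searched by their letters. TATAAA is the TATA box, CCAAT the CCAAT box, AACAAT a core bound by SOX factors, CAGCTG an E-box and TGANTCA the site of AP-1. The full cyclic AMP response element, CRE, was searched as TGACGTCA. Its shorter core, which every full element also contains, was searched as TGACG.
Pdgfra: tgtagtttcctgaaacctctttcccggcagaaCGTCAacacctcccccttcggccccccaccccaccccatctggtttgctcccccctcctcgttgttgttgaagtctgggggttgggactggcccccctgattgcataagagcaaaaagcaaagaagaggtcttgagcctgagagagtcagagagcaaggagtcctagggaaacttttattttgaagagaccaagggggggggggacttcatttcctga
Olig2: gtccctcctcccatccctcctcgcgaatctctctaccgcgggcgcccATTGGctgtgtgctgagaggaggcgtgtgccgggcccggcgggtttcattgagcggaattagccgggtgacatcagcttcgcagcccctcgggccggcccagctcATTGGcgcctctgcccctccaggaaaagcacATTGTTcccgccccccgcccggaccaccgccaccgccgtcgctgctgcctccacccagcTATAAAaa
Cnp: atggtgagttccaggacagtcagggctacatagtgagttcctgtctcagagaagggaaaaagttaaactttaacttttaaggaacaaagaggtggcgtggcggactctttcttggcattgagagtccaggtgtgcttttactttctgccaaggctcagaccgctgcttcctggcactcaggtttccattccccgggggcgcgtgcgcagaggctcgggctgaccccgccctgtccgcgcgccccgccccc
The Olig2 window held TATAAA beginning 8 bases before that listed start, CCAAT beginning 98 and 203 bases before it, and AACAAT beginning 67 bases before it. The Pdgfra window held TGACG once, 218 bases before its listed start, and the Cnp window held no match to these letters. Over all 32851 promoter windows of this length, 12.4% held TATAAA, 33.8% CCAAT, 9.42% AACAAT, 6.75% TGANTCA, 1.55% TGACGTCA, 17.8% TGACG and 13% CAGCTG. The Olig2 window had 22 CG dinucleotides, against 4 for Pdgfra, 13 for Cnp and a median of 6 over all windows. A match to the letters is a description of the sequence and not a measured site.

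To compare genes, levels were divided by gene length and are given as CPM per kb, the mean over the 20 libraries. The transcription factors Olig2 and Olig1 led: Olig2 stood at 5.70 ± 1.21 CPM per kb (SD over 20 libraries), above 98.6% of the genes in the table, and Olig1 at 2.96 ± 0.95. The precursor genes Pdgfra (1.76 ± 0.20) and Cspg4 (0.925 ± 0.092) followed, then Sox10 (0.788 ± 0.14). Of the myelin genes, Mbp (0.412 ± 0.048) and Cnp (0.327 ± 0.069) were transcribed at lower levels per length, and Mag (0.0124 ± 0.0046) and Mog (0.00805 ± 0.0036) were near the limit of counting. Mag had 5 to 25 counts per library and Mog 2 to 12, so their group means move with a few reads.

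**Figure D1:**
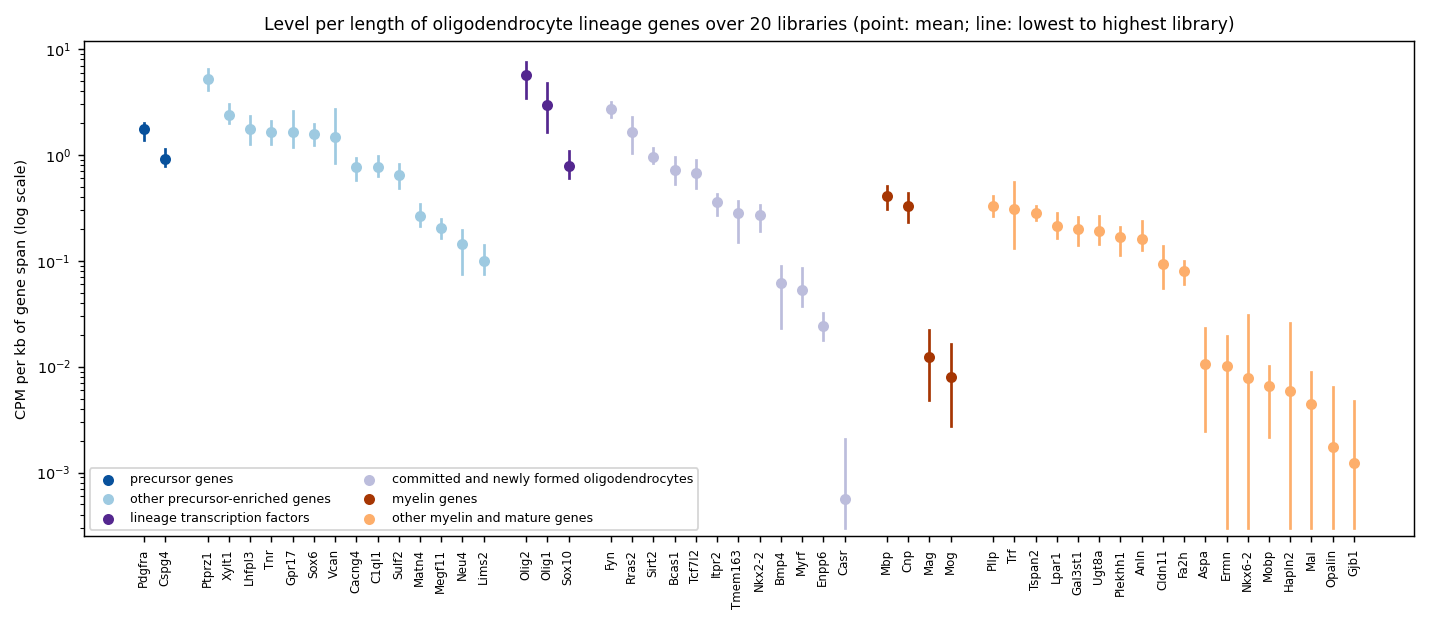
Level per length of the lineage genes and of other genes of each stage, as CPM per kb of gene span on a log axis; points are means over 20 libraries and lines run from the lowest to the highest library, with libraries at 0 drawn at the lower edge. Olig2 (5.70) and Olig1 (2.96) stand highest among the 9, and Mag (0.0124) and Mog (0.00805) lowest.

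Within each library, Pdgfra exceeded Mbp per kb by 3.24 to 5.41 times (median 4.20), Cnp by 3.83 to 7.33 times, Mag by 80.6 to 336 times and Mog by 84.1 to 561 times. Pdgfra exceeded Cspg4 by 1.43 to 2.42 times, and Olig2 exceeded Olig1 by 1.56 to 2.53 times. Precursor genes were thus above each myelin gene per length in all 20 libraries, in every group. As a single value per library, the mean log2 CPM of the precursor genes minus that of the myelin genes differed by -0.11 to 0.23 between the groups compared, each within the pooled SD between replicates, and it was not tested because it is a score over the members. Mog and Mag, with 2 to 25 counts per library, are 2 of the 4 myelin genes in that mean. Between the deeper genes, Cspg4 exceeded Mbp per kb by 2.36 to 3.19 times in DMSO with water at 4 h, by 2.00 to 2.25 times with bicuculline for 1 h and by 1.78 to 2.07 times with bicuculline for 4 h, so the water libraries did not overlap either bicuculline group; with MM401 it was 2.01 to 2.15 times in water and 1.85 to 2.54 times in bicuculline at 1 h, and 2.26 to 2.40 times and 2.33 to 2.70 times at 4 h, which overlapped at both times. Pdgfra over Mbp overlapped in DMSO, with 3.88 to 5.41 times in water, 3.90 to 4.62 times with bicuculline for 1 h and 4.31 to 4.95 times for 4 h. Replicate 1 of DMSO with water (3.88) made that overlap, and replicates 2 and 3 (5.41 and 5.18) lay above both bicuculline groups. With MM401 Pdgfra over Mbp overlapped at 1 h (3.82 to 4.00 times in water and 3.48 to 5.25 times in bicuculline) and not at 4 h (3.24 to 3.76 times and 4.10 to 4.74 times). Pdgfra over Cnp moved the other way: in DMSO it was 3.83 to 5.76 times in water, 5.52 to 7.33 with bicuculline for 1 h and 5.15 to 5.70 for 4 h. Replicate 1 of DMSO with water (5.76) made that overlap, and replicates 2 and 3 (3.83 and 3.96) lay below both bicuculline groups. With MM401 Pdgfra over Cnp was 5.55 to 5.99 in water and 4.90 to 6.43 in bicuculline at 1 h, and 5.37 to 6.42 and 4.32 to 5.56 at 4 h, overlapping at both times. For MM401 against DMSO in water at 4 h the difference in the mean was -0.07, and 0.15 without replicate 2 of MM401 with water.

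Further genes of the lineage, taken from lists by stage, were also spread widely. Of 20 other myelin and mature genes, 15 could be tested. Gjb1, Opalin, Ermn, Hapln2 and Nkx6-2 had too few counts, with at most 10 in any library, and Mobp (0.00651 CPM per kb) and Mal (0.00443) were as low as Mog. Pllp (0.331) and Trf (0.310) were near the level of Cnp. The 11 tested genes listed for committed and newly formed cells ran from 0.0242 to 2.71 CPM per kb. Enpp6, a marker of newly formed oligodendrocytes (0.0242), and Myrf, the regulator that switches on the myelin programme (0.0535), were the lowest of them. Bcas1 (0.714), Tcf7l2 (0.679) and Itpr2 (0.356) were near the levels of Sox10 and Mbp, and Fyn, which neurons also express, was at 2.71. All 15 further precursor-enriched genes could be tested, from Lims2 (0.10) to Ptprz1 (5.26 CPM per kb), with Gpr17, a receptor of committed precursors, at 1.63, but many of them, such as Ptprz1, Tnr, Sox6 and Lhfpl3, are also expressed by neurons or astrocytes.

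**Figure D2:**
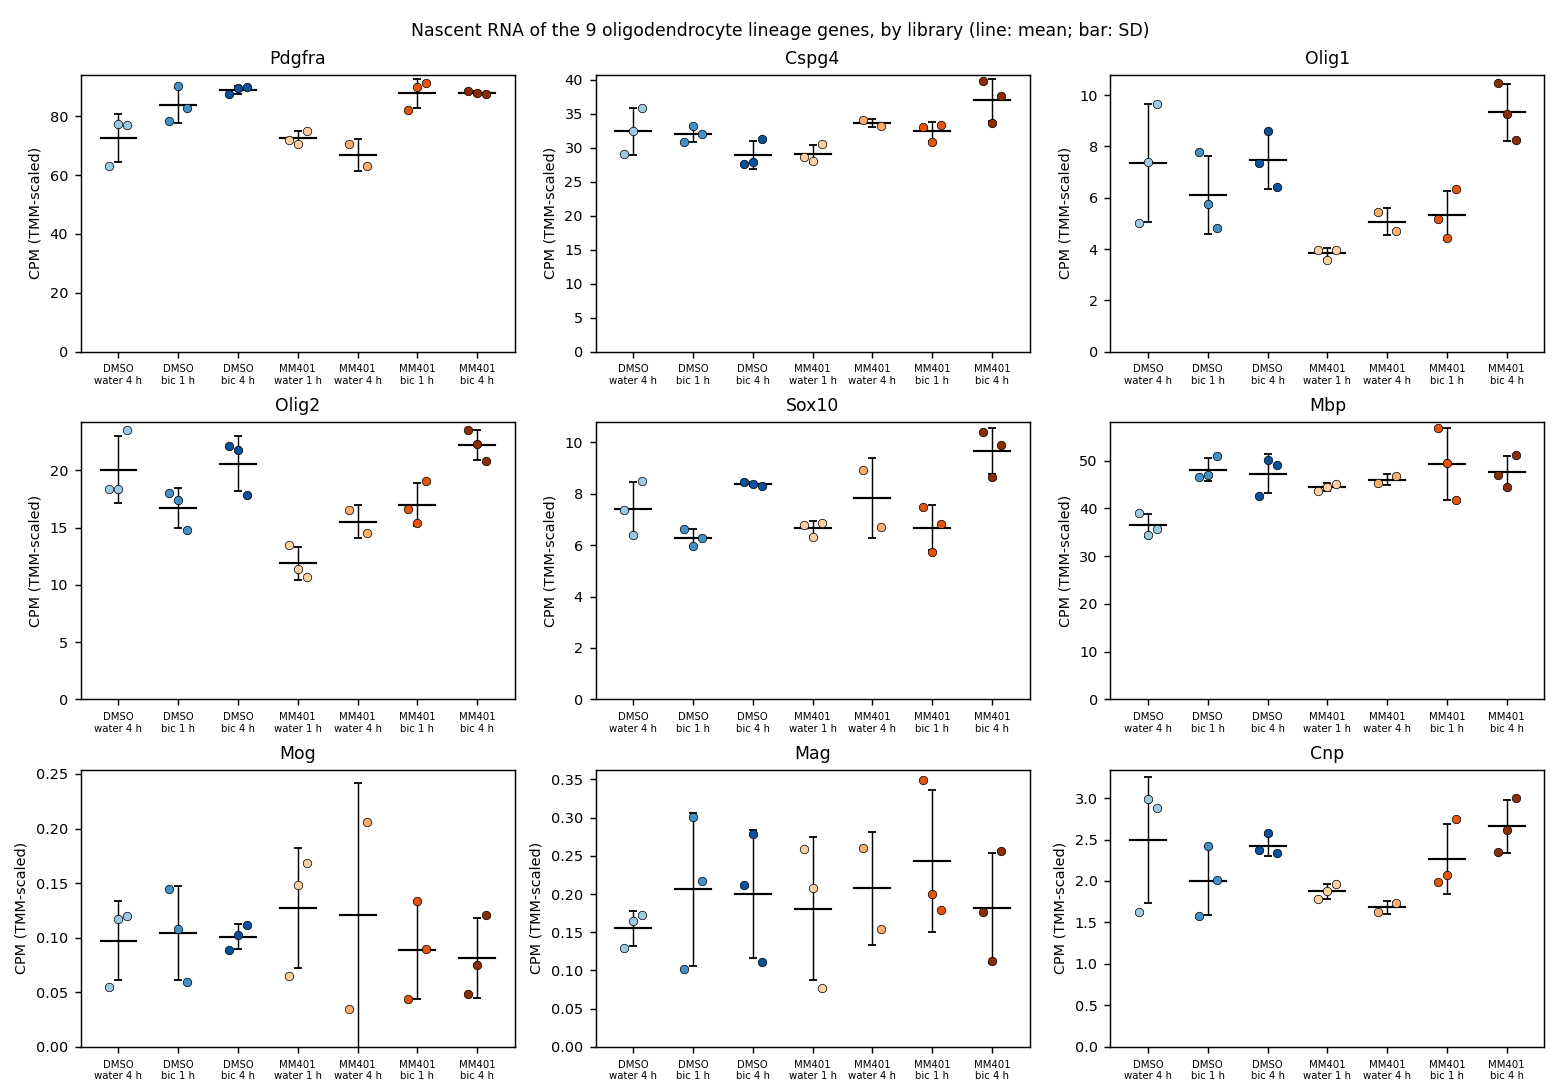
CPM (TMM-scaled) of the 9 genes in each of the 20 libraries, by group; points are libraries, horizontal lines means and bars SD over 3 replicates (2 for MM401 with water at 4 h; bars are cut at 0). Pdgfra lies between 78.2 and 91.2 CPM in the 12 bicuculline libraries and between 63.0 and 77.4 in the 8 water libraries.

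Bicuculline was compared with water to ask how raised network activity changes transcription at 1 h and 4 h. Of the 9 genes, 2 were called at each time in DMSO, Pdgfra and Mbp, both higher. With MM401, Pdgfra and Olig2 were called at 1 h, and Pdgfra, Olig1, Olig2 and Cnp at 4 h, all higher. The background was wide: edgeR called 44.6% of all genes tested at 1 h in DMSO (20% higher), 49.2% at 4 h in DMSO (23.7% higher), 39.9% at 1 h with MM401 (18.1% higher) and 44.6% at 4 h with MM401 (23% higher). Of the 9 members 2, 2, 2 and 4 were called in these comparisons, all higher and 0 lower. The median change over the 9 genes was -0.02, 0.03, 0.27 and 0.30 in the 4 comparisons, against -0.04, -0.02, -0.00 and 0.02 over all genes. Both DMSO comparisons share their water libraries.

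**Figure D3:**
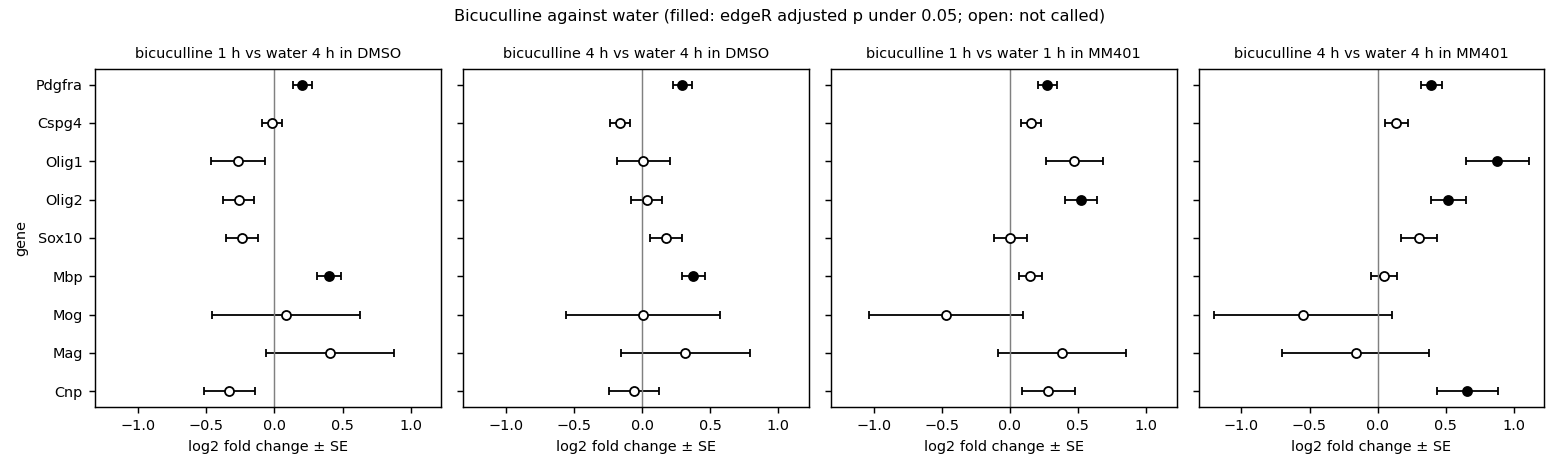
Log2 fold change of bicuculline against water for the 9 genes with its SE, in DMSO (1 h and 4 h, each against water at 4 h) and with MM401 (each time against its own water group); filled points are called by edgeR. Pdgfra is called in all 4 comparisons (0.20 to 0.40), and Mbp in DMSO.

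Pdgfra, the receptor for platelet-derived growth factor on precursors, had CPM of 63.1, 77.4 and 77.1 in the 3 libraries of DMSO with water at 4 h. With bicuculline it had 78.2, 90.1 and 82.7 at 1 h, and 87.5, 89.6 and 89.9 at 4 h. With MM401 it had 72.0, 70.6 and 75.1 in water at 1 h, 70.6 and 63.0 in water at 4 h, then 82.2, 89.8 and 91.2 in the libraries of bicuculline for 1 h and 88.5, 87.8 and 87.5 in those of 4 h. All 12 bicuculline libraries were thus above all 8 water libraries, and the 4 bicuculline groups overlapped one another. In edgeR the log2 fold changes were 0.20 ± 0.07 (SE; adjusted p = 0.0202) and 0.29 ± 0.07 (adjusted p = 0.00133) in DMSO at 1 h and 4 h, and 0.27 ± 0.07 (adjusted p = 0.00321) and 0.40 ± 0.08 (adjusted p = 0.000333) with MM401, which is 15.3% to 31.6% more. The 1 h call in DMSO was lost with only the groups compared (0.23, adjusted p = 0.0542), without replicate 1 of DMSO with water (0.12, adjusted p = 0.142) or without replicate 2 of DMSO with bicuculline at 1 h (0.15, adjusted p = 0.118). With the low-count library included, neither 1 h call remained (0.23, adjusted p = 0.11 in DMSO and 0.28, adjusted p = 0.0578 with MM401).

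These changes are on the TMM scale, which centres on the bulk of genes. When libraries were scaled by their plain total, the median of all genes moved to -0.23, -0.30, -0.21 and -0.06 in the 4 comparisons. The share of calls that were higher went from 44.9% to 21.2% and from 48.1% to 18.8% in DMSO at 1 h and 4 h, and from 45.4% to 16.3% and from 51.5% to 40.3% with MM401. Pdgfra was then at 0.01, 0.01, 0.06 and 0.32 and was called in the last alone. Less the shift of the median gene these are 0.24, 0.31, 0.28 and 0.38, which is the same change with another centre and no further test. Under plain totals Olig2 with MM401 was at 0.32 at 1 h (adjusted p = 0.0601) and 0.44 at 4 h (adjusted p = 0.0227), and in DMSO at 1 h Olig2 (-0.46), Sox10 (-0.43) and Cnp (-0.53) were called lower by edgeR. In DMSO at 4 h Cspg4 was then called lower too (-0.44, adjusted p = 0.000783).

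Pdgfra is 1 of 6 genes listed for PDGF ligands and receptors. Of these 6, Pdgfra included, 3, 4, 3 and 5 were called higher and 0 lower in the 4 comparisons, where 20%, 23.7%, 18.1% and 23% of all genes were called higher, and 2 and 3 in DMSO without replicate 1 of DMSO with water. Pdgfa, the ligand that acts on precursors, rose by 0.37 ± 0.10 and 0.40 ± 0.10 in DMSO and by 0.40 ± 0.10 and 0.44 ± 0.11 with MM401. Pdgfc, another ligand of the receptor, rose by 0.18 ± 0.06 at 1 h and 1.08 ± 0.07 at 4 h in DMSO, and by 0.31 ± 0.06 and 0.75 ± 0.07 with MM401. Pdgfrb, the receptor of pericytes, rose at 4 h by 0.33 ± 0.12 in DMSO and 0.54 ± 0.14 with MM401.

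Cspg4, the other precursor gene, which pericytes also make, was not called in these comparisons. Its CPM were 29.0, 32.4 and 35.9 in DMSO with water, 30.8, 33.3 and 32.0 with bicuculline at 1 h, and 27.6, 28.0 and 31.3 at 4 h. In MM401 cultures the values were 28.6, 28.1 and 30.6 in water at 1 h, 34.1 and 33.2 in water at 4 h, 33.0, 30.8 and 33.4 in bicuculline of 1 h, and 39.8, 33.6 and 37.6 at 4 h. The groups overlapped in 3 of the 4 comparisons, and the fold changes were -0.02 ± 0.07, -0.16 ± 0.08, 0.16 ± 0.08 and 0.14 ± 0.08. In DMSO at 4 h its adjusted p was 0.0754 in edgeR, and without replicate 1 of DMSO with water it was called lower (-0.24, adjusted p = 0.0122), as it was without replicate 3 of DMSO with bicuculline at 4 h (-0.22, adjusted p = 0.0305), with the replicate block (-0.16, adjusted p = 0.0437) and with the gene length correction (-0.18, adjusted p = 0.0449). With MM401 at 1 h it was called higher with RLE factors (0.18, adjusted p = 0.0487) and with the gene length correction (0.21, adjusted p = 0.0238). The 2 precursor genes thus differed in their calls, but the difference between their changes was not tested.

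Among the transcription factors, Olig2 had CPM of 18.3, 18.4 and 23.5 in DMSO with water, 18.0, 17.4 and 14.8 with bicuculline at 1 h, and 22.1, 21.8 and 17.8 at 4 h. The MM401 libraries had 13.5, 11.4 and 10.7 in water at 1 h, 16.5 and 14.5 in water at 4 h, 16.6, 15.4 and 19.1 in bicuculline of 1 h, and 23.5, 22.3 and 20.9 at 4 h. In both MM401 comparisons every bicuculline library was above every water library of its time. Olig2 with MM401 rose by 0.52 ± 0.12 at 1 h (edgeR adjusted p = 0.00122) and by 0.52 ± 0.13 at 4 h (adjusted p = 0.00284), about 43.6% and 43.4% more; without replicate 2 of the MM401 water group of 4 h the 4 h value was 0.40 (adjusted p = 0.0714). In DMSO it was at -0.26 ± 0.11 at 1 h (adjusted p = 0.0679), with all 3 bicuculline libraries below the 3 water libraries, and at 0.03 ± 0.11 at 4 h.

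Olig1, the neighbour 41091 bp from Olig2, had CPM of 5.03, 7.40 and 9.65 in DMSO with water, a range that covers those of bicuculline at 4 h (7.36, 8.60 and 6.41) and nearly those at 1 h (7.78, 5.77 and 4.81). Under MM401 its CPM were 3.98, 3.59 and 3.95 in water at 1 h, 5.44 and 4.69 in water at 4 h, 5.17, 4.45 and 6.34 in bicuculline of 1 h, and 10.5, 9.26 and 8.26 at 4 h. With MM401 it rose by 0.88 ± 0.23 at 4 h (edgeR adjusted p = 0.00449), an 84.0% gain and the largest called change among the 9 genes in the bicuculline comparisons; without replicate 2 of MM401 with water it was 0.74 (adjusted p = 0.0677). At 1 h it was at 0.47 ± 0.21 (adjusted p = 0.0802), with no overlap between the groups, and it was called by DESeq2 (0.50, adjusted p = 0.0267), with only the groups compared (0.48, adjusted p = 0.0115) and with the gene length correction (0.44, adjusted p = 0.0218). In DMSO its changes were -0.27 ± 0.20 and 0.01 ± 0.20 and were not called. With the correction for gene length, edgeR called Olig2 (0.23) and Sox10 (0.36) higher and Cspg4 (-0.18) lower at 4 h in DMSO, beside Pdgfra and Mbp.

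With replicate 1 of DMSO in water left out, the DMSO picture at 1 h differed. Olig1 (-0.47, adjusted p = 0.0341), Olig2 (-0.32, adjusted p = 0.0389) and Cnp (-0.55, adjusted p = 0.00945) were then called lower by edgeR, Mbp stayed called higher, and 4 members were called in place of 2. Of all genes, 46.5% were called in that fit at 1 h, against 44.6% in the main fit, and 48.2% against 49.2% at 4 h. That library was the lowest of its group for Olig1 (5.03 CPM) and for the summed astrocyte markers (1158 CPM, against up to 1655 in the group). The part of cell composition in these values was not tested.

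Sox10, which drives myelin genes directly, was not called against water. It had CPM of 7.37, 6.40 and 8.50 in DMSO with water, 6.64, 5.99 and 6.27 with bicuculline at 1 h, and 8.47, 8.37 and 8.30 at 4 h. With MM401 its levels were 6.79, 6.32 and 6.84 in water at 1 h, 8.94 and 6.72 in water at 4 h, 7.49, 5.75 and 6.81 in bicuculline of 1 h, and 10.4, 8.66 and 9.89 at 4 h. Against water the changes were -0.24 ± 0.12, 0.18 ± 0.12, 0.00 ± 0.12 and 0.30 ± 0.13, and at 4 h with MM401 the adjusted p in edgeR was 0.0654. That change was called without replicate 1 of its water group (0.50, adjusted p = 0.0189), without replicate 2 of its bicuculline group (0.37, adjusted p = 0.0394), with the gene length correction (0.33, adjusted p = 0.043) and with the replicate block (0.28, adjusted p = 0.0321). Its change was between times: all 3 libraries at 4 h of bicuculline were above all 3 at 1 h, in DMSO and with MM401.

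Mbp had CPM of 39.1, 34.4 and 35.8 in DMSO with water, 46.5, 46.9 and 50.9 with bicuculline at 1 h, and 42.5, 50.0 and 49.1 at 4 h. The 6 bicuculline libraries were above the 3 water libraries, and Mbp rose by 0.40 ± 0.09 (edgeR adjusted p = 0.000653) and 0.38 ± 0.09 (adjusted p = 0.000986), which is 32.1% and 29.7% more. In MM401 cultures it stood at 43.6, 44.5 and 45.2 in water at 1 h, 45.2 and 46.8 in water at 4 h, 56.8, 49.5 and 41.7 in bicuculline of 1 h, and 46.9, 44.5 and 51.3 at 4 h. These groups overlapped, and the changes of 0.15 ± 0.09 and 0.05 ± 0.10 were not called. Without replicate 3 of MM401 with bicuculline at 1 h, the 1 h change was 0.27 and was called (edgeR adjusted p = 0.0111). Scaled by plain library totals, the DMSO changes were 0.21 and 0.10, the second not called.

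Cnp, an enzyme of the myelin cytoplasm that precursors already make, had CPM of 1.62, 2.99 and 2.88 in DMSO with water, 1.58, 2.42 and 2.01 with bicuculline at 1 h, and 2.37, 2.58 and 2.33 at 4 h. With MM401 it had 1.78, 1.88 and 1.96 in water at 1 h, 1.63 and 1.74 in water at 4 h, 1.99, 2.07 and 2.75 in bicuculline of 1 h, and 2.35, 2.62 and 3.0 at 4 h. With MM401 at 4 h all bicuculline libraries were above both water libraries, and Cnp rose by 0.66 ± 0.22 (edgeR adjusted p = 0.0194). Scaled by plain totals its adjusted p was 0.0673. That call rests on few counts (88 to 255 per library over the series) and was lost in 3 of 5 fits that left out 1 library, with values of 0.56 to 0.74 over the 5: those without replicate 3 of bicuculline (0.56) or replicate 1 (0.59) or 2 (0.67) of water. The other changes of Cnp were -0.33 ± 0.19, -0.06 ± 0.19 and 0.28 ± 0.20.

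Mag ranged from 0.0766 to 0.349 CPM and Mog from 0.0347 to 0.206 CPM over the 20 libraries, and all groups overlapped in the 4 comparisons. Their changes ran from -0.16 to 0.41 for Mag and from -0.55 to 0.08 for Mog, with SE of 0.47 to 0.65. With MM401 at 4 h the 95% interval of the change of Mog ran from -1.90 to 0.81, so smaller changes were not detectable at this depth.

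Further lineage genes were counted by stage, beside the 20%, 23.7%, 18.1% and 23% of all genes that edgeR called higher and the 24.5%, 25.5%, 21.8% and 21.7% called lower in the 4 comparisons. Of 15 precursor-enriched genes, 8, 5, 7 and 5 were called higher and 0, 1, 0 and 2 lower in the 4 comparisons, with medians of 0.29, 0.15, 0.32 and 0.26. Vcan, a matrix proteoglycan, rose most at 4 h (1.22 ± 0.10 in DMSO and 1.36 ± 0.11 with MM401). Cacng4, a subunit of AMPA receptors, fell by 0.18 and 0.31 at 4 h. Without replicate 1 of DMSO with water, 9 were higher and 1 lower at 1 h, and 5 and 0 at 4 h.

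Of 11 genes of committed and newly formed cells that could be tested, 7, 7, 5 and 5 were called higher and 0 lower, with medians of 0.45, 0.35, 0.27 and 0.27. Rras2, a small GTPase, rose by 0.91 ± 0.11 at 4 h in DMSO, and Fyn, a kinase that acts in myelination and in neurons, by 0.34 ± 0.06 at 1 h with MM401. Myrf rose at 1 h in DMSO (0.63 ± 0.19). Of 15 other myelin and mature genes, 3, 5, 1 and 4 were higher and 1, 1, 2 and 1 lower. Ugt8a, which makes the myelin lipid galactocerebroside, rose at 4 h by 0.51 ± 0.09 in DMSO and 0.62 ± 0.11 with MM401, and Lpar1, a receptor for lysophosphatidic acid, by 0.47 ± 0.10 and 0.58 ± 0.11.

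Of 18 regulators of the lineage tested, 8, 10, 9 and 14 were called higher and 2, 1, 1 and 1 lower; in DMSO without replicate 1 of DMSO with water, 5 and 8 were higher and 3 and 2 lower. Klf9, a target of thyroid hormone, rose by 1.25 ± 0.07 and 1.23 ± 0.07 at 1 h in DMSO and with MM401. Hes5, a Notch target that holds back differentiation, fell by 1.77 at 1 h in DMSO and rose by 0.82 ± 0.21 at 4 h with MM401. Of 14 signals to the lineage, 7, 5, 8 and 5 were higher and 2, 2, 0 and 3 lower. Bdnf, which neurons make on activity, rose by 2.18 ± 0.10 to 2.66 ± 0.11 in DMSO, and Igf1 by 0.50 ± 0.09 to 0.55 ± 0.09. Some genes, such as Sox6 and Myrf, stand in more than 1 list. Several of these genes, such as Zeb2, Sox5 and Bdnf, are transcribed by neurons, and these counts do not assign a gene to a cell type.

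Markers of other cell types moved in the same comparisons. Astrocyte markers were called higher for 3, 1, 6 and 4 of 10, with 1, 0, 0 and 0 lower; in DMSO without replicate 1 of DMSO with water, 2 and 0 were higher and 2 and 2 lower. With MM401 their summed level was 1111 to 1383 CPM in water and 1640 to 1710 CPM with bicuculline at 1 h, and 1122 to 1242 against 1379 to 1455 CPM at 4 h. In DMSO it was 1158 to 1655 CPM in water, 1589 to 1727 CPM with bicuculline at 1 h and 1384 to 1506 CPM at 4 h, which overlapped. The 1158 CPM was replicate 1 of DMSO with water. Without it the 4 h bicuculline sums lay below water, and those of 1 h still overlapped. Microglial markers were higher for 0, 3, 0 and 6 of 8 (52.9 to 58.6 CPM in water and 78.3 to 83.6 CPM with bicuculline at 4 h with MM401, and 60.7 to 65.2 against 69.8 to 88.3 CPM at 4 h in DMSO; Tmem119 was too low to test). Neuronal markers were higher for 3, 6, 4 and 5 and lower for 2, 2, 1 and 2 of 10. Their summed level was 5067 to 6214 CPM in DMSO with water, 6188 to 6672 CPM with bicuculline at 1 h and 7672 to 8147 CPM at 4 h; with MM401 it went from 5085 to 5368 CPM in water to 6127 to 7214 CPM in bicuculline at 1 h, and from 5918 to 6022 CPM to 6917 to 7547 CPM at 4 h. The neuronal sums thus overlapped with water at 1 h in DMSO and lay above it in the other 3 comparisons. The overlap came from replicate 1 of DMSO with water (6214 CPM), and without it the 1 h sums also lay above water. Pericyte and fibroblast markers were higher for 1, 2, 2 and 1 of 8, at 9.31 to 16.0 CPM in all, endothelial markers for 0, 1, 0 and 0 of 4, and Schwann cell markers for 4, 1, 3 and 3 of 6 with 0, 1, 1 and 1 lower. The last include Egr2, an activity-induced gene of neurons, and Sox2, which is also a gene of precursors and astrocytes, was listed at 0 in every library. The part of these cell types in the changes of the lineage genes was not tested.

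MM401 was compared with DMSO to ask whether inhibition of MLL1 alters transcription at rest or under bicuculline. EdgeR called 0 of the 9 genes in water at 4 h (0.0826% of all genes called), under bicuculline for 1 h (0.0059%) and under bicuculline for 4 h (0% of all genes). At an unadjusted p under 0.05 there were 4, 0 and 1 of the 9, against 12.9%, 3.18% and 7.72% of all genes. DESeq2 called 0, 0 and 1. In water at 4 h the 4 were Olig1 (-0.55 ± 0.23, adjusted p = 0.323), Olig2 (-0.37 ± 0.13, adjusted p = 0.246), Cnp (-0.59 ± 0.22, adjusted p = 0.28) and Mbp (0.34 ± 0.10, adjusted p = 0.158). Olig2 was lower in both MM401 libraries (16.5 and 14.5 CPM) than in the 3 DMSO libraries (at least 18.3 CPM), and Mbp was higher in both (45.2 and 46.8 CPM, against at most 39.1).

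Without replicate 1 of DMSO with water, edgeR called 1272 genes in water at 4 h, 7.5% of those tested, and with them Olig1 (-0.75, adjusted p = 0.0283), Cnp (-0.80, adjusted p = 0.015) and Mbp (0.39, adjusted p = 0.0248). In that fit 6 of 10 astrocyte markers were called lower, with a median of -0.54, and their summed level was 1122 to 1242 CPM in the MM401 libraries. Their part in the result was not tested.

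In bicuculline at 4 h, Cspg4 was higher in all 3 MM401 libraries (33.6 to 39.8 CPM) than in the 3 DMSO libraries (27.6 to 31.3 CPM). EdgeR gave 0.35 ± 0.08 with an adjusted p of 0.474, and DESeq2 0.34 with an adjusted p of 0.0402, so the call depends on the tool. The changes of the other 8 genes lay between -0.30 and 0.32. In bicuculline at 1 h all 9 lay between -0.22 and 0.18, and the groups overlapped for each gene.

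The response to bicuculline under MM401 was compared with that in DMSO by an interaction at 4 h. EdgeR called 0 genes of all those tested (2552 at an unadjusted p under 0.05, 15% of genes; DESeq2 called 294) and 0 of the 9 genes, with 5 of the 9 at an unadjusted p under 0.05. DESeq2 gave an adjusted p for Pdgfra alone of the 9 (0.07, adjusted p = 0.635) and left the others without one. The 5 were Olig1 (0.87 ± 0.30, adjusted p = 0.237), Cnp (0.72 ± 0.29, adjusted p = 0.269), Olig2 (0.49 ± 0.17, adjusted p = 0.238), Cspg4 (0.30 ± 0.11, adjusted p = 0.244) and Mbp (-0.33 ± 0.13, adjusted p = 0.262), a positive value meaning a larger response with MM401. Olig1, Olig2 and Cnp were called at 4 h with MM401 and not in DMSO, and Mbp the reverse, but the test of that difference did not pass the threshold for any of them. Without replicate 1 of DMSO with water, edgeR called 1551 genes (9.15%), among them Olig1 (1.07, adjusted p = 0.0152), Cnp (0.93, adjusted p = 0.0209) and Cspg4 (0.37, adjusted p = 0.0325), and 3 of 10 astrocyte markers higher.

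Bicuculline at 4 h was compared with 1 h to follow the response over time. In DMSO 1 of the 9 genes was called, where edgeR called 34.2% of all genes (19.1% higher), and with MM401 3 were called, where it called 33.6% (17.5% higher). Sox10 rose in both, by 0.41 ± 0.12 in DMSO (adjusted p = 0.00855) and by 0.54 ± 0.12 with MM401 (adjusted p = 0.00116). With MM401, Olig1 rose by 0.81 ± 0.20 (adjusted p = 0.00439) and Olig2 by 0.38 ± 0.12 (adjusted p = 0.013), and the libraries of the 2 times did not overlap for any of the 3. In DMSO Olig2 was at 0.30 ± 0.11, just outside the threshold (adjusted p = 0.0502; called at 0.0454 with the replicate block, at 0.0141 with the gene length correction, at 0.0457 without replicate 1 of bicuculline at 1 h and at 0.0163 without replicate 3 at 4 h). Olig2 with MM401 was not called without replicate 2 of bicuculline at 1 h (adjusted p = 0.0732) or replicate 1 at 4 h (adjusted p = 0.0555). With the low-count library included, neither it (0.36, adjusted p = 0.0706) nor Sox10 in DMSO (0.37, adjusted p = 0.0835) was called. Between 1 h and 4 h in water with MM401, Olig2 was at 0.39 ± 0.13, Olig1 at 0.40 ± 0.23 and Sox10 at 0.24 ± 0.13, none of them called; the difference between the changes in bicuculline and in water was not tested.

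The precursor and myelin genes did not pass the test over this interval. Pdgfra was at 0.09 ± 0.07 and 0.00 ± 0.07, Mbp at -0.03 ± 0.09 and -0.05 ± 0.09, and Cnp at 0.27 ± 0.19 and 0.22 ± 0.19. Cspg4 was at -0.14 ± 0.08 in DMSO (edgeR adjusted p = 0.151), called lower with the gene length correction (-0.19, adjusted p = 0.0464), and at 0.19 ± 0.08 with MM401 (adjusted p = 0.0533), where all 3 libraries of 4 h were above the 3 of 1 h. With MM401 it was called higher with the replicate block (0.19, adjusted p = 0.0275), with plain library totals (0.27, adjusted p = 0.0486) and without replicate 2 of bicuculline at 4 h (0.26, adjusted p = 0.0183). The 95% interval of the change of Pdgfra with MM401 was -0.14 to 0.15. Of the 15 precursor-enriched genes 3 and 3 were higher and 6 and 7 lower at 4 h than at 1 h in DMSO and with MM401. Of all genes edgeR called 19.1% and 17.5% higher and 15.2% and 16% lower. Vcan rose by 0.84 ± 0.10 and 0.73 ± 0.10, and Tnr, a matrix glycoprotein, fell by 0.37 and 0.56. With plain library totals the median of all genes with MM401 moved to 0.10 and the share of calls that were higher from 52.3% to 65%, and in DMSO that share moved from 55.7% to 39.2%; Sox10 in DMSO was then not called (0.33, adjusted p = 0.0728).

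Water at 4 h was compared with water at 1 h with MM401, as the background of time without bicuculline. Both groups held MM401, so time in culture and length of exposure to MM401 cannot be told apart. EdgeR called 0 of the 9 genes and 0.867% of all genes (0.265% higher and 0.601% lower); 2 of the 9 were at an unadjusted p under 0.05, against 10% of all genes (1699), and DESeq2 called 0 of the 9. Olig2 was at 0.39 ± 0.13 (adjusted p = 0.218) and Cspg4 at 0.21 ± 0.08 (adjusted p = 0.358), each with both 4 h libraries above the 3 at 1 h. Olig1 (adjusted p = 0.642) and Mbp (0.05 ± 0.10, adjusted p = 0.949) were likewise higher in both 4 h libraries, Cnp was lower in both (-0.16 ± 0.22, adjusted p = 0.922), and Sox10 (adjusted p = 0.61) overlapped. The share of all genes whose 2 libraries at 4 h stood apart from the 3 at 1 h is not given here. No effect of time on the 9 genes is read from these separations. The DMSO comparison at 1 h has a water group of another time, so bicuculline and time in culture cannot be told apart there.

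**Figure D4:**
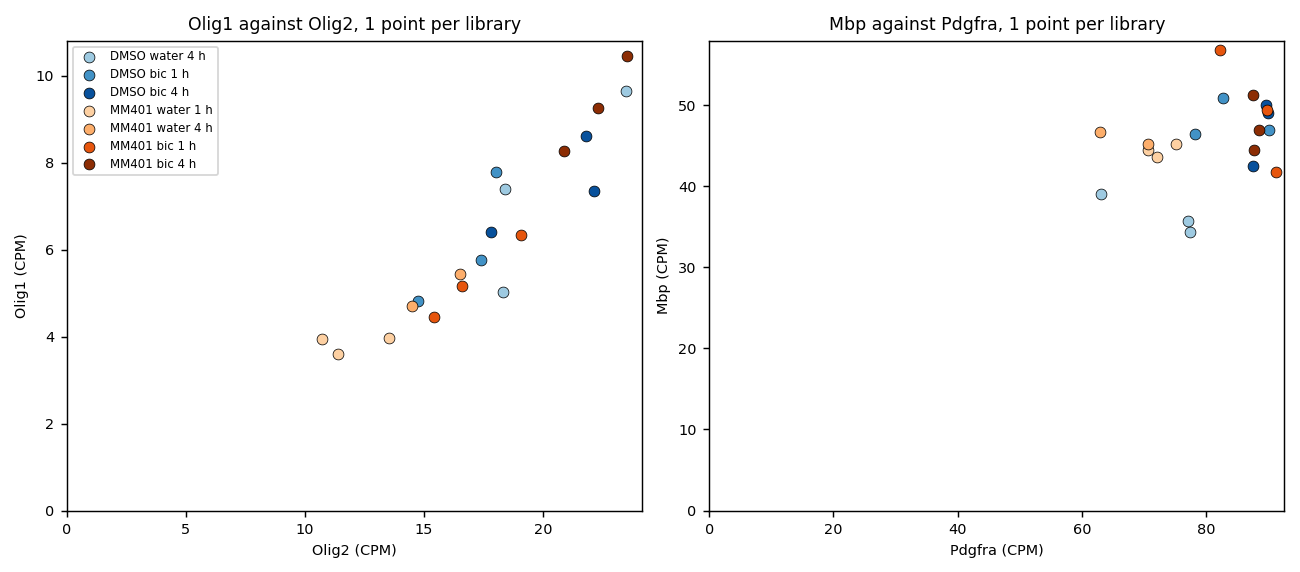
Olig1 against Olig2 and Mbp against Pdgfra, in CPM, with 1 point for each of the 20 libraries, coloured by group. Olig1 and Olig2 rise together over the libraries, from MM401 with water at 1 h to MM401 with bicuculline at 4 h; for Mbp and Pdgfra the Pearson correlation of log2 CPM is 0.34 over the libraries and -0.43 after group means are removed.

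Over groups, Olig1 and Olig2 took the same order at both ends: MM401 with bicuculline at 4 h was highest (9.33 ± 1.10 and 22.2 ± 1.3 CPM, SD, n = 3) and MM401 with water at 1 h lowest (3.84 ± 0.22 and 11.9 ± 1.5 CPM, n = 3). Neighbours in the order overlapped, except that the lowest group lay below the next, MM401 with water at 4 h. Pdgfra had a single gap, between the 4 bicuculline groups (means of 83.6 to 89.0 CPM) and the 3 water groups (66.8 to 72.6 CPM). For Mbp the wider gap lay below MM401 with water at 1 h: DMSO with water at 4 h was lowest (36.4 ± 2.4 CPM, n = 3; at most 39.1), and the other 6 groups had means of 44.4 to 49.4 CPM. MM401 with water at 1 h (43.6 to 45.17 CPM) also lay just below MM401 with water at 4 h (45.20 to 46.8 CPM). For Sox10, MM401 with bicuculline at 4 h was highest (9.65 ± 0.90 CPM) and did not overlap DMSO with bicuculline at 4 h (8.38 ± 0.09 CPM).

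As a description, with the libraries sharing their groups and scaling, the log2 CPM of Olig1 and Olig2 had a Pearson correlation of 0.927 over the 20 libraries, and 0.777 after group means were removed. Of 12787 genes compared by this measure, those most like Olig1 were Ednrb, the endothelin B receptor (0.933), H3f3b, a histone H3.3 gene (0.932), and Olig2. For Olig2 they were Olig1, Hist1h2bg (0.922) and H1f0 (0.92), both histone genes. Those most like Pdgfra were Ntsr2, a neurotensin receptor of astrocytes (0.963), Lrrc4 (0.933) and Nefl, a neurofilament gene (0.929). For Sox10 the first was Lims2 (0.885), from the list of precursor-enriched genes. For Mbp it was Tmem132c (0.88), for Cspg4 Crb2 (0.744), and for Cnp Abt1 (0.905). For Mag and Mog, with few counts, they were Cldn11, the tight junction protein of myelin (0.631), and Man2b2 (0.701).

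Deviations from the group mean were also set beside those of the mean log2 CPM of the tested markers of other cell types. Each marker had the same weight there, unlike in the summed levels above. Within groups, the deviations of Pdgfra and of Cnp had correlations of 0.889 and 0.819 with those of the astrocyte markers over the 20 libraries, Cspg4 of 0.688, Olig1 of 0.505, Olig2 of 0.135 and Mbp of -0.306. With markers of other cell types, Pdgfra had correlations of 0.588 (microglia) and 0.449 (neurons), and Sox10 of 0.742 (endothelium). These libraries share depth and scaling. The part of astrocyte content in the spread of Pdgfra was not tested.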

How the data were processed

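BrU-seq libraries of 7 groups were analysed from raw read counts per gene, whole numbers that the authors deposited without normalization. Per the file headers the table has the columns of featureCounts output, with each gene's span and length; the submitters' processing notes name mm10, featureCounts, Bowtie2 and UMI-tools. Versions, strand use and duplicate handling are not given in the sources used here. For 412 genes with several listed positions the deposited count was used as given. Counts were fitted in R 4.3.3 with edgeR 4.0.16 (robust quasi-likelihood, TMM, filterByExpr with minimum count 10 and total 15), with 20 libraries, 1 mean per group and no block. All tests were two-sided, with Benjamini-Hochberg adjustment over 16959 genes and a threshold of 0.05. Intervals are at 95% (fold change and SE with the fit's degrees of freedom). The common biological coefficient of variation was 8.77%. The edgeR step was checked on simulated counts. Alternatives were DESeq2 1.42.0, RLE or plain library scaling, no filter, a replicate block, a gene length correction, only the groups compared, all 21 libraries, and leaving out each library.

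The 9 genes and all lists were chosen with earlier results of these data known. From each list, up to 3 called genes a direction with the largest change and at least 0.5 CPM were eligible to be named, beside ligands of Pdgfra and myelin structural genes. Some genes of the lists are counted but not reported by name here. Likeness used genes of at least 1 CPM.

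Groups share replicate numbers, whose meaning the labels leave unstated. In MM401 against DMSO in bicuculline at 4 h the same-numbered libraries deviated together, with correlations of 0.15, 0.107 and 0.172. In the other comparisons they were not all over 0.1. The main fit had no block in any comparison, so its p-values are not paired, and the replicate block was run as an alternative. No pair of replicates agreed within sampling noise (chi-square per degree of freedom 6.14 to 78.5). The libraries may differ by culture or only by handling, so p-values measure the spread between these samples.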

Additional observations from a re-analysis of the deposited data

Results flagged for a closer look

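An interaction at 1 h, added after seeing the data, set the response to bicuculline with MM401 (against water at 1 h) beside that in DMSO (against water at 4 h). EdgeR called Olig2, with a response larger by 0.785 on the log2 scale with MM401 (SE 0.16, adjusted p = 0.0191), among 233 genes called. Without replicate 1 of DMSO with water, 513 genes were called, among them Olig2 (0.84, adjusted p = 0.00855), Olig1 (0.95, adjusted p = 0.0392) and Cnp (0.83, adjusted p = 0.0478). The water groups differ in time, which cannot be told apart from the pretreatment here. With water at 4 h for both responses the value was 0.40 (adjusted p = 0.582) and 0 genes were called (1326 at an unadjusted p under 0.05). Without that library 97 genes were called and 0 of the 9, with Cnp at 0.99 (adjusted p = 0.0598) and Olig2 at 0.46 (adjusted p = 0.226).

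The library of MM401 with water at 4 h that was left out for its low total held 2 counts of Mog, which is 6.31 CPM of its 316741 counts, against at most 0.214 CPM of the plain total in the other water libraries. The exact Poisson 95% interval of 0.765 to 22.8 CPM covers counting error only.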

How the results depend on the processing

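No called change of the 9 genes turned its direction under the alternatives run; signs that changed were of uncalled values, 18 of 99 with plain library totals and 61 of 612 over the fits that left out 1 library. Against the main counts of members called (2, 2, 2 and 4 for bicuculline against water at 1 h and 4 h in DMSO and with MM401), using all 21 libraries gave 1 at 1 h in DMSO, 1 at 1 h with MM401 and 0 for bicuculline at 4 h against 1 h in DMSO. Of all genes it called 31.1%, 27.4% and 22.3% in these comparisons, against 44.6%, 39.9% and 34.2% in the main fit. Plain library totals gave 4 and 1 at 1 h and 4 h in DMSO, 0 at 1 h with MM401, and 0 for 4 h against 1 h in DMSO. The shares of all genes called were then 51%, 57.1%, 46.1% and 30.3%. Using only the groups compared gave 1 at 1 h in DMSO (35.7% of all genes called) and 3 at 1 h with MM401 (43.3%). There DESeq2 (40.1%) and RLE factors (39.5%) gave 3 as well. The gene length correction gave 5 at 4 h in DMSO (46.8% of all genes called), and 4 at 1 h (37.4%) and 5 at 4 h (47.3%) with MM401. For 4 h against 1 h in DMSO it gave 3 (36.5%). DESeq2 gave 1 for MM401 against DMSO in bicuculline at 4 h (0.0413% of all genes called). The interaction at 1 h gave 1 with water at 1 h for the MM401 response, among 233 genes called. The replicate block gave 2 for 4 h against 1 h in DMSO (36.7% of all genes called), where the numbers are not known to pair. It changed no call of the 9 genes in MM401 against DMSO in bicuculline at 4 h, where same-numbered libraries deviated together. The other calls it added were Sox10 at 1 h in DMSO (-0.23) and at 4 h with MM401 (0.28). It also added Cspg4 at 4 h in DMSO (-0.16) and at 4 h against 1 h with MM401 (0.19). Leaving out 1 library gave 1 to 4 members called at 1 h and 2 to 3 at 4 h in DMSO, 2 to 3 and 1 to 5 with MM401, 0 to 3 for MM401 against DMSO in water and for the interaction at 4 h, 1 to 2 and 2 to 4 for 4 h against 1 h in DMSO and with MM401, and 0 in the other 3. Over those fits edgeR called 36.9% to 46.5% of all genes at 1 h and 43% to 48.2% at 4 h in DMSO. With MM401 it called 32.5% to 38.7% at 1 h, and 39.6% to 41.3% at 4 h without 1 bicuculline library. For 4 h against 1 h it called 28.8% to 31.3% in DMSO and 27.3% to 31.9% with MM401. Without replicate 1 of DMSO with water it called 7.5% for MM401 against DMSO in water and 9.15% for the interaction at 4 h. The precursor minus myelin value of MM401 against DMSO in water ranged from -0.29 to 0.15. Where a fit left 1 library in a group, it was assumed to vary like the others. EdgeR called 14 genes for MM401 against DMSO in water and DESeq2 166, 1 and 13 in bicuculline at 1 h, 0 and 7 at 4 h, and 147 and 275 for water at 4 h against 1 h. The causes were not tested. Counts of Mog and Mag limit what can be seen of late myelin genes.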
